A study of Rattus norvegicus with 12 samples.

Results

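The nuclear receptor superfamily was examined in ovarian RNA-seq libraries of female Sprague Dawley rats at postnatal week 15. A list of 45 nuclear receptor genes was matched by name to the deposited expression table, and 44 of them were found among its 19730 genes. The glucocorticoid receptor gene Nr3c1 was not matched and was not analysed here. The study compared 3 groups of wild-type rats, with 1 library per rat and 4 rats per group. Rats of the control group ate standard food and received neither letrozole nor mogroside V. Rats of the PCOS group received letrozole, an inhibitor of the aromatase that converts androgens to estrogens, together with a high-fat diet for 30 days, as a model of polycystic ovary syndrome. Rats of the PCOS-MV group had the same induction and were then given mogroside V (MV), a triterpenoid glycoside of Luo-Han-Guo fruit, for 30 days. Induced rats entered the model when their vaginal smears stayed in metestrus and diestrus, so the PCOS and PCOS-MV groups were selected in a way the control group was not. Letrozole and the diet were given together and cannot be told apart. What the PCOS group was given while MV was administered is not described in the sources used here.

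Nuclear receptors are transcription factors that bind DNA through a zinc-finger domain. Many are switched by a small lipid-soluble ligand, such as a steroid, a retinoid, a thyroid hormone, a bile acid or a fatty acid, and others have no known natural ligand and are called orphans. In the ovary, NR5A1 (SF-1) and NR5A2 (LRH-1) drive steroidogenic genes in follicular and luteal cells, and NR0B1 (DAX-1) and NR0B2 (SHP), which lack a classical DNA-binding domain, repress other receptors. Estrogen receptors act in granulosa and theca cells, and the progesterone receptor appears in granulosa cells of preovulatory follicles after the luteinizing hormone surge. NR1D1 and NR1D2 (REV-ERB) repress and RORA activates the clock gene Arntl (BMAL1).

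Promoters are printed for the steroidogenic pair Nr5a1 and Nr0b1 and the clock-linked pair Nr1d1 and Nr1d2, described below. They show the bases that many receptors of this family and the clock factors recognise. All matched receptors were searched, and each of the receptors printed had a motif. RefSeq windows of the 250 bases before the start, on the GRCr8 assembly, matched 38 of the 44 receptors by symbol, with 46 windows in all. The 2 motifs searched on both strands were AGGTCA, the hexamer bound by many nuclear receptors, and CACGTG, the E-box bound by clock factors. AGGTCA was present in 14.1% and CACGTG in 5.59% of all 33469 windows of this length. Capitals mark the motif found, and each sequence runs 5′ to 3′ on the strand of the gene.
Nr0b1, GRCr8 chrX:54707408-54707657, plus strand: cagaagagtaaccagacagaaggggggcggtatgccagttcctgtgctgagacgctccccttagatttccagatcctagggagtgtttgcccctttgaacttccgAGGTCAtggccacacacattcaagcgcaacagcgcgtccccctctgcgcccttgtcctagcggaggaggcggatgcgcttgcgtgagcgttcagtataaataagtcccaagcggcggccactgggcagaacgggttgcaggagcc
Nr5a1, GRCr8 chr3:42896047-42896296, minus strand: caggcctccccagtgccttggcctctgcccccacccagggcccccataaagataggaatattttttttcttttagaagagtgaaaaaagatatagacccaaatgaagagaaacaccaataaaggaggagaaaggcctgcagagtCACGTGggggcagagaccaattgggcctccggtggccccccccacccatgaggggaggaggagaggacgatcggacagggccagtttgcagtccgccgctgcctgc
Nr1d1, GRCr8 chr10:84229455-84229704, minus strand: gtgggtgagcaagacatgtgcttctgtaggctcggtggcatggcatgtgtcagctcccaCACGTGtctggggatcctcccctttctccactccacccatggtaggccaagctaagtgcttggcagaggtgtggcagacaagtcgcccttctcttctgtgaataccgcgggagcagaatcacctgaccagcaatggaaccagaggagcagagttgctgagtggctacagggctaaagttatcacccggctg
Nr1d2, GRCr8 chr15:9954784-9955033, plus strand: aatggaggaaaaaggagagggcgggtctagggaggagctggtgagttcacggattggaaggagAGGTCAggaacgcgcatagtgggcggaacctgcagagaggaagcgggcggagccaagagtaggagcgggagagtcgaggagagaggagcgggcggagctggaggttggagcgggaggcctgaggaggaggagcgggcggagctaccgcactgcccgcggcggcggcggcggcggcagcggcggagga
The AGGTCA hexamer began 145 bases before the start of Nr0b1 and 187 bases before that of Nr1d2. The CACGTG hexamer began 106 bases before the start of Nr5a1 and 191 bases before 1 of the starts of Nr1d1. Among the receptors, AGGTCA was found for 5 (Esrrg, Nr0b1, Nr1d2, Nr5a2 and Rarg), in 5 of the 46 windows. CACGTG was found for 4 (Esr2, Nr0b2, Nr1d1 and Nr5a1), in 4 of the 46 windows. A match describes the letters of a window and was not tested as a binding site.

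Levels are given as FPKM, the deposited number of fragments scaled to gene length and library size, so they can be compared between genes. In the control group the receptors ranged from Nr2f2 (COUP-TFII), at 68.5 ± 6.68 FPKM (SD, n = 4), to Hnf4a, a liver and gut receptor, at 0.0450 ± 0.0198 FPKM. The next highest were the steroidogenic receptors Nr5a1 (53.9 ± 4.94) and Nr5a2 (42.8 ± 17.8), the clock receptors Nr1d1 (39.1 ± 2.84) and Rora (36.9 ± 14.3) and the immediate early receptor Nr4a1 (33.0 ± 31.2). Nr1h2 (LXRβ) was at 29.5 ± 1.61 FPKM, Rxra, the shared dimer partner, at 23.5 ± 1.83 FPKM and Nr2c2 (TR4) at 16.3 ± 1.65 FPKM. Relative to its mean, the SD between control libraries was smallest for Rxrb (11.8 ± 0.157) and Esrra (18.5 ± 0.298) among the tested receptors. The receptors with a mean over the 12 libraries of at least 1 FPKM, 32 in number, entered the test. The other 12 did not, namely Rarb, Rxrg, Nr1h4, Nr1i2, Nr1i3, Rorb, Nr2e3, Hnf4a, Hnf4g, Nr6a1, Esrrb and Esrrg. The bile acid receptor, the xenobiotic receptors PXR and CAR, the photoreceptor receptor Nr2e3 and both HNF4 genes were thus near the floor of these libraries. The progesterone receptor gene Pgr passed the filter through a single library, Control replicate 3.

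**Figure D1:**
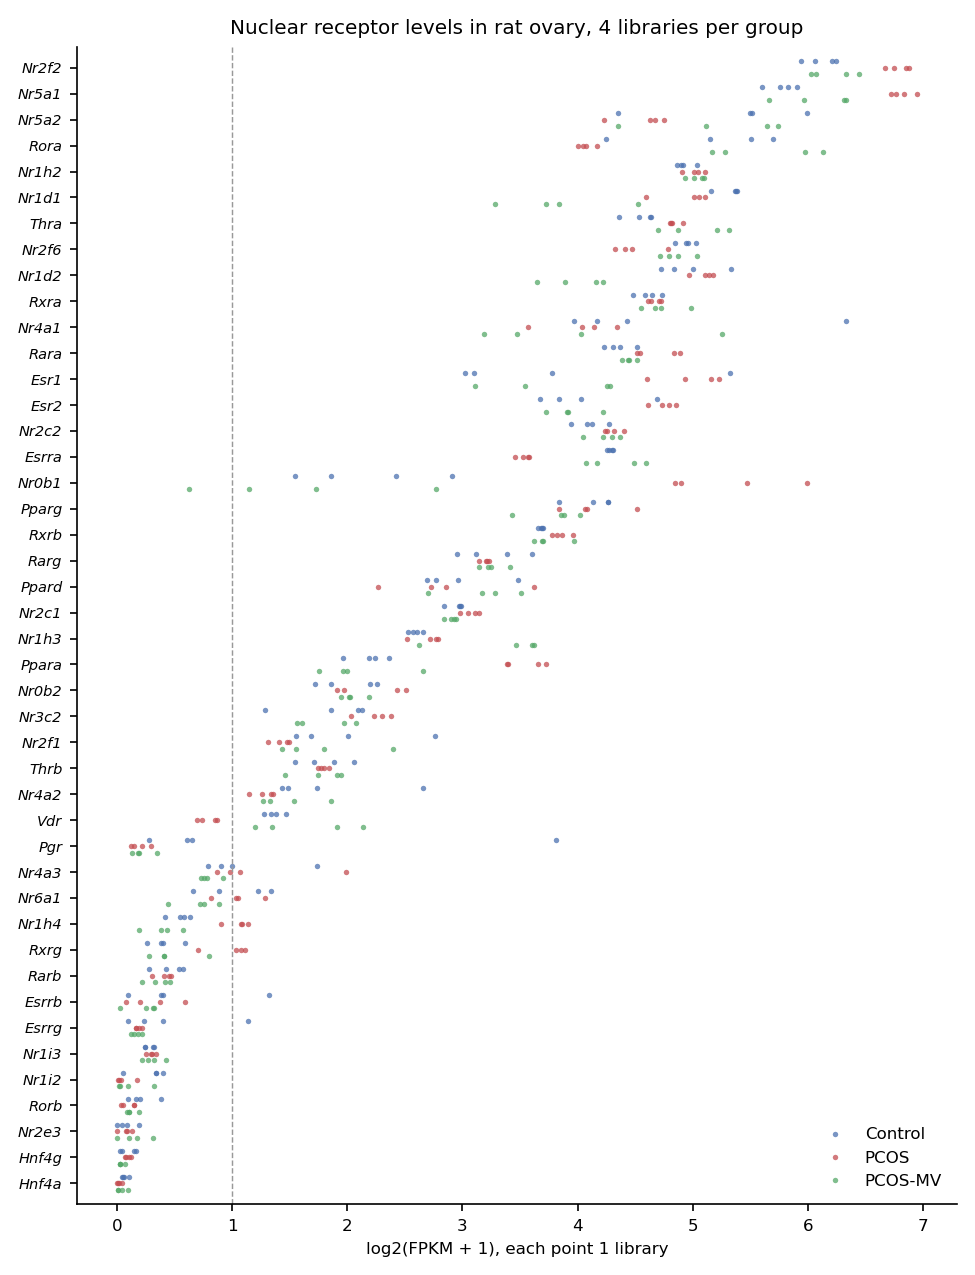
Level of each of the 44 receptors in each library as log2(FPKM + 1), with control in blue, PCOS in red and PCOS-MV in green, ordered by the mean over 12 libraries. The dashed line marks 1 FPKM; Nr2f2 and Nr5a1 lie at the top, and the PCOS points of Nr0b1 lie apart from the other 8.

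The groups were compared on log2(FPKM + 1) with limma over all 13430 genes that had a mean of at least 1 FPKM, 4 libraries against 4, and a gene was called at a Benjamini-Hochberg adjusted p under 0.05. On this scale the change of genes with low FPKM is understated. In the PCOS group, 12 of the 32 tested receptors (37.5%) differed from the control group, 7 higher and 5 lower, where 27.4% of all tested genes were called, 11.9% higher and 15.6% lower. The 7 were Nr0b1, Ppara, Nr5a1, Esr2, Nr2f2, Rara and Thra, and the 5 were Rora, Esrra, Vdr, Nr2f6 and Nr1d1. The ranges of the PCOS and control groups did not overlap for 13 receptors, against 31.0% of all tested genes. The median difference of the 32 receptors was 0.10 on the log2 scale and that of all tested genes was -0.03. The difference between these shares was not tested.

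In the PCOS-MV group, 11 of the 32 receptors (34.4%) differed from the PCOS group, where 25.7% of all tested genes were called, 14.3% higher and 11.4% lower. Nr0b1, Ppara, Esr1, Nr1d2, Nr1d1, Esr2, Nr5a1 and Nr2f2 were lower (8 receptors), and Rora, Vdr and Esrra were higher (3 receptors). The ranges did not overlap for 12 receptors, against 30.0% of all tested genes. The median difference was -0.05 for the receptors and 0.03 for all tested genes. Between the PCOS-MV and control groups limma called 0 receptors, with 4 at an unadjusted p under 0.05 (Thra, Nr1h3, Nr1d1 and Nr1d2), and the only gene called of 13430 (0.00745%) was Senp1, a SUMO protease gene listed at 0 in the 4 control libraries, named here after its value was seen. An unadjusted p under 0.05 was reached there by 1142 of all tested genes. The ranges of these 2 groups did not overlap for 3 receptors, Nr1d1, Nr1d2 and Thra, against 5.10% of all tested genes. The comparisons with the PCOS group share its 4 libraries, so their values are set side by side and were not treated as independent.

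**Figure D2:**
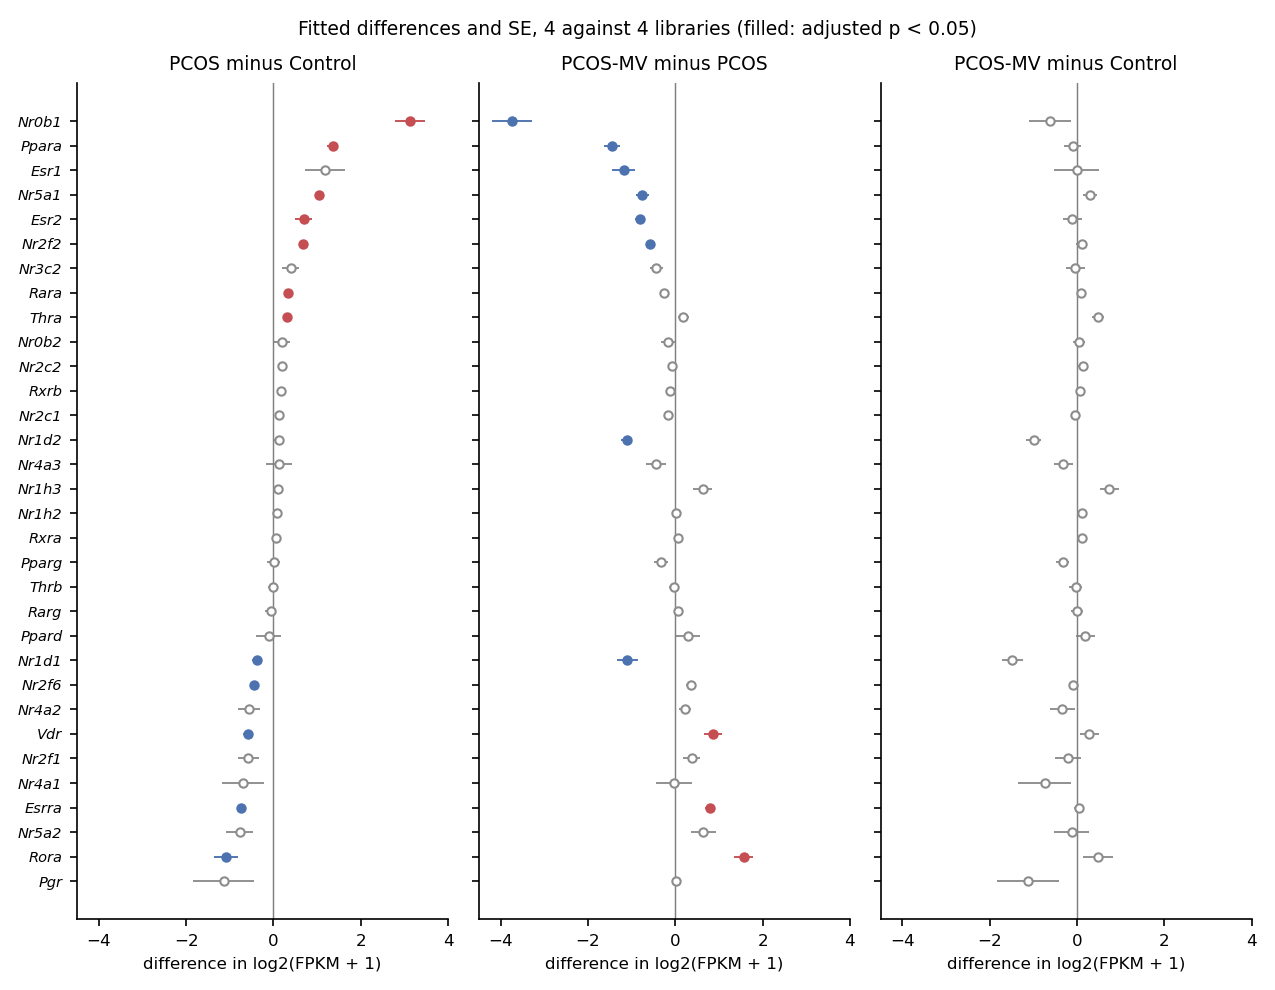
Fitted difference in log2(FPKM + 1) with its SE for the 32 tested receptors in the 3 comparisons, 4 libraries against 4, ordered by PCOS minus Control. Filled points passed an adjusted p of 0.05 (red higher, blue lower); no point is filled for PCOS-MV minus Control, where Nr1d1 (-1.48) and Nr1d2 (-0.99) lie lowest among the receptors other than Pgr.

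The NR5A and NR0B receptors held the largest change of the family. Nr0b1, the repressor of NR5A1 on the X chromosome (54734385 to 54738513, plus strand, in the coordinates of the authors' file, whose build is not named), was at 1.92, 4.35, 2.62 and 6.49 FPKM in the control libraries. PCOS libraries had 27.9, 62.6, 43.4 and 28.9 FPKM, and PCOS-MV libraries had 2.30, 0.543, 5.81 and 1.21 FPKM. The lowest PCOS library was above every library of the other groups. The PCOS mean was 10.6-fold the control mean, with a log2 difference of 3.12 ± 0.34 (SE, adjusted p = 0.000315). The PCOS-MV group fell by 3.74 ± 0.45 on the log2 scale from the PCOS group (adjusted p = 0.000803). Against the control group the PCOS-MV difference was -0.62 ± 0.47 (adjusted p = 0.708).

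Nr5a1, which encodes the main activator of steroidogenic genes (chromosome 3, 22999616 to 23020441, minus strand), was at 47.4, 55.8, 59.1 and 53.2 FPKM in control ovaries. Its PCOS libraries were at 108, 113, 105 and 123 FPKM and its PCOS-MV libraries at 79.3, 49.6, 78.4 and 61.4 FPKM. The PCOS group was thus above both other groups in every library. It was higher than control by a log2 difference of 1.04 ± 0.09 (adjusted p = 7.52e-05) and was lower by -0.75 ± 0.15 in PCOS-MV ovaries (adjusted p = 0.00786). Nr5a2, its close relative, which in the rodent ovary is found in granulosa and luteal cells, had 44.8, 62.6, 19.4 and 44.3 FPKM in control ovaries. It had 24.5, 25.9, 17.7 and 23.8 FPKM in PCOS ovaries and 52.6, 49.1, 19.5 and 33.6 FPKM in PCOS-MV ovaries. The groups overlapped, since Control replicate 3 and PCOS-MV replicate 3 were as low as the PCOS libraries. Neither difference passed the test, at -0.77 ± 0.31 (adjusted p = 0.101) and 0.65 ± 0.29 (adjusted p = 0.136). Without Control replicate 3 the first was -1.10 (adjusted p = 0.00206), and without PCOS-MV replicate 3 the second was called as well, with an adjusted p of 0.00944. Nr0b2, the other receptor without a DNA-binding domain, was at 2.30 to 3.79, 2.77 to 4.71 and 2.85 to 3.55 FPKM in control, PCOS and PCOS-MV ovaries, which overlapped.

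The ratio of Nr5a1 to Nr5a2 describes the balance of these receptors within a library. Its log2 value was 0.43 ± 0.77 (SD, n = 4) in control ovaries, 2.25 ± 0.20 in PCOS ovaries and 0.85 ± 0.81 in PCOS-MV ovaries. The lowest PCOS ratio, 2.09, was above the highest control ratio, 1.56, and the highest PCOS-MV ratio, 1.96. The exact two-sided permutation test gave p = 0.0286 for both differences, which is the smallest p that 4 against 4 libraries allow, and 0.0762 after adjustment over 24 tests of 8 receptor pairs.

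**Figure D3:**
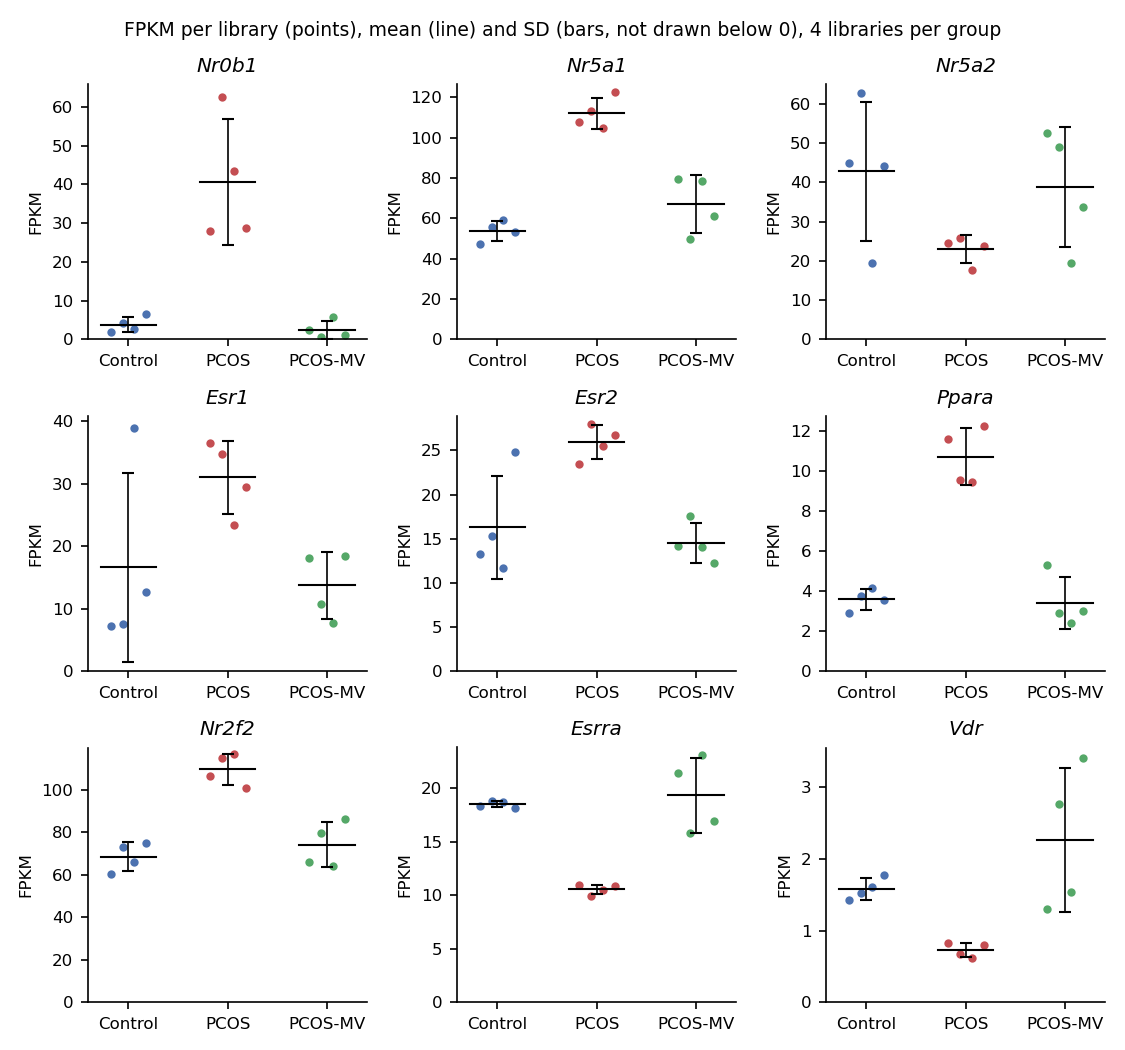
FPKM of 9 receptors in every library (points) with the group mean (line) and SD (bars), 4 libraries per group. The PCOS points of Nr0b1, Nr5a1, Ppara and Nr2f2 lie above and those of Esrra and Vdr below all points of the other groups. For Esr1, 1 control point lies above all PCOS points, and for Esr2, 1 control point lies inside the PCOS range.

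The listed target genes of the NR5A receptors moved in both directions. Of the 10 tested, 3 rose and 5 fell in PCOS ovaries, and 3 rose and 3 fell in PCOS-MV ovaries compared with PCOS, which is 80% and 60% called where 27.4% and 25.7% of all tested genes were. The steroid 17α-hydroxylase gene Cyp17a1 was at 16.97 to 63.6 FPKM in control ovaries, 655 to 1866 FPKM in PCOS ovaries and 1.57 to 88.1 FPKM in PCOS-MV ovaries. The aromatase gene Cyp19a1 was at 14.2 to 19.6, 50.1 to 67.6 and 2.02 to 31.2 FPKM, and the inhibin α gene Inha at 388 to 540, 676 to 988 and 453 to 660 FPKM in the same order. These 3 genes were higher in PCOS ovaries by 5.12, 1.74 and 0.72 on the log2 scale and then lower in PCOS-MV ovaries by -6.00, -2.81 and -0.56. The last of these, that of Inha, was called in 2 of 8 fits without a library (adjusted p up to 0.0744) and not with the replicate block (0.0681), and the other differences of Cyp17a1 and Cyp19a1 in all 8. The cholesterol transport gene Star took the opposite course, at 1864 to 2793, 462 to 1151 and 1589 to 2891 FPKM, with log2 differences of -1.70 and 1.57. The ferredoxin gene Fdx1 (-1.51 and 1.53) and its reductase gene Fdxr (-1.01 and 0.80), which pass electrons to the mitochondrial steroid enzymes, went with Star. Cyp11a1 (-1.14), the side-chain cleavage enzyme, and Scarb1 (-1.34), the lipoprotein receptor, fell in PCOS ovaries, and their PCOS-MV differences from PCOS, 0.45 and 0.70, did not pass.

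Markers of ovarian cell types moved with these groups. In bulk tissue, fewer cells of a type and less RNA per cell cannot be told apart. Of the theca or interstitial markers, which include the receptor Nr2f2, 5 of 6 were called in each comparison with the PCOS group, 4 higher and Ptch1 lower in PCOS than in control, and 5 lower in PCOS-MV than in PCOS. Their summed level was 141 to 230 FPKM in control ovaries, 1807 to 3381 in PCOS ovaries and 122 to 289 in PCOS-MV ovaries, and Cyp17a1 and Insl3 made up most of it in PCOS ovaries. Insl3, a defining theca gene, was at 1.76 to 8.84, 906 to 1188 and 4.91 to 14.5 FPKM. The 7 luteal markers summed to 4280 to 8016, 1829 to 3467 and 2962 to 6929 FPKM, and 5 of the 6 tested were called between PCOS and control, 4 of them lower. The 8 granulosa markers summed to 666 to 912, 1098 to 1557 and 624 to 1138 FPKM, with 5 of 8 called between PCOS and control, 4 higher and Fst lower. Of the endothelial markers, 5 of 7 were lower in PCOS ovaries, and of the smooth muscle markers 1 of 7 was called. Of 6 leukocyte markers 2 were called between PCOS and control, at sums of 308 to 344, 243 to 405 and 291 to 408 FPKM. In PCOS-MV compared with PCOS, 2 luteal markers were called higher and 1 lower, and 1 granulosa marker higher and 3 lower. Of the endothelial markers 3 were higher and 1 lower there, and 1 smooth muscle marker was lower. Of the leukocyte markers 1 was higher and 2 were lower. Beside these counts, 27.4% of all tested genes were called between PCOS and control and 25.7% between PCOS-MV and PCOS. The 5 tested oocyte markers gave 0 calls by limma, with 0 between PCOS and control and 2 between PCOS-MV and PCOS at an unadjusted p under 0.05, at summed levels of 15.0 to 26.1, 14.2 to 16.9 and 17.2 to 26.6 FPKM. No listed marker was at 0 in all libraries. Cyp17a1, Cyp19a1, Inha, Star, Cyp11a1 and Scarb1 are themselves among these markers, and the part of cell composition in the receptor changes was not tested.

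Among the steroid hormone receptors, Esr1 (ERα) was at 7.15, 7.57, 39.0 and 12.7 FPKM in control ovaries and at 36.5, 34.7, 23.4 and 29.5 FPKM in PCOS ovaries. In the PCOS-MV group it was at 18.1, 10.7, 7.65 and 18.5 FPKM, below every PCOS library. Control replicate 3, at 39.0 FPKM, was above every PCOS library, and the other control libraries were below them. Esr1 was lower in PCOS-MV than in PCOS ovaries by -1.18 ± 0.27 (adjusted p = 0.0143). The PCOS difference from control was 1.18 ± 0.46 and did not pass (adjusted p = 0.0937), and without Control replicate 3 it was 1.68 (adjusted p = 0.00101). Esr2 (ERβ), the form known from granulosa cells, was at 13.3, 15.3, 11.7 and 24.8 FPKM in control ovaries and at 23.4, 28.03, 25.6 and 26.8 FPKM in PCOS ovaries. Its PCOS-MV libraries were at 14.1, 17.6, 14.1 and 12.2 FPKM. Control replicate 4 lay inside the PCOS range, and the PCOS-MV libraries all lay below it. Esr2 rose by 0.69 ± 0.20 (adjusted p = 0.0319) and was then lower by -0.81 ± 0.11 (adjusted p = 0.00147). The rise was called in 1 of the 8 fits that left out a library, that without Control replicate 4 (adjusted p = 0.00110), and in the other fits its adjusted p was 0.0503 to 0.0811.

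The log2 ratio of Esr1 to Esr2 was -0.25 ± 1.27 (SD, n = 4) in control ovaries, 0.23 ± 0.31 in PCOS ovaries and -0.14 ± 0.69 in PCOS-MV ovaries, with overlapping ranges. Of the 8 tested estrogen receptor target genes, 2 rose (Igf1 and Lhcgr) and 2 fell (Ccnd1 and Ctsd) in PCOS ovaries. In PCOS-MV ovaries compared with PCOS 2 fell, again Igf1 and Lhcgr. Lhcgr is also on the luteal and the theca or interstitial marker lists. Igf1, a growth factor gene, was at 39.9 to 45.5, 130 to 170 and 27.997 to 67.3 FPKM in control, PCOS and PCOS-MV ovaries, and Lhcgr, the luteinizing hormone receptor gene, at 28.7 to 78.2, 113 to 199 and 15.2 to 97.8 FPKM. Nr3c2, the mineralocorticoid receptor gene, was at 1.43 to 3.37, 3.08 to 4.20 and 1.95 to 3.21 FPKM, with log2 differences of 0.39 ± 0.19 (adjusted p = 0.157) and -0.43 ± 0.14 (adjusted p = 0.0548). Without PCOS-MV replicate 3 the latter had an adjusted p of 0.0277. Genes that respond to the glucocorticoid receptor, whose own gene was not analysed, gave 5 of 12 lower in PCOS ovaries, and 4 higher and 3 lower in PCOS-MV ovaries than in PCOS. Sgk1, a kinase gene induced by corticosteroids, was at 134 to 192, 57.0 to 74.0 and 127 to 223 FPKM in the 3 groups.

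Among the lipid sensors, Ppara, the fatty acid receptor that drives fat oxidation, was called in both comparisons with PCOS. It was at 2.90, 3.72, 4.14 and 3.56 FPKM in control ovaries, 11.6, 9.53, 9.47 and 12.2 FPKM in PCOS ovaries and 5.29, 2.90, 2.38 and 2.98 FPKM in PCOS-MV ovaries. All PCOS libraries were above all others. Ppara rose by 1.35 ± 0.12 (adjusted p = 9.15e-05) and was lower by -1.45 ± 0.19 in PCOS-MV ovaries (adjusted p = 0.00115). Pparg, the receptor of fat cells and also of granulosa cells, was at 13.3 to 18.2, 13.3 to 21.9 and 9.79 to 15.2 FPKM, and Ppard at 5.45 to 10.2, 3.81 to 11.3 and 5.51 to 10.4 FPKM. Their differences did not pass, at 0.00 and -0.33 for Pparg and -0.11 and 0.30 for Ppard. The log2 ratio of Ppara to Pparg was -1.94 ± 0.31 (SD, n = 4) in control ovaries, -0.58 ± 0.23 in PCOS ovaries and -1.71 ± 0.48 in PCOS-MV ovaries. Each change of this ratio had an exact permutation p of 0.0286 and an adjusted p of 0.0762.

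Of the 12 tested PPAR target genes, 1 rose and 6 fell in PCOS ovaries, and 4 rose and 2 fell in PCOS-MV ovaries compared with PCOS. The lipid droplet coat gene Plin2 was at 99.98 to 136, 29.6 to 41.0 and 114 to 273 FPKM in control, PCOS and PCOS-MV ovaries, and Angptl4, which encodes an inhibitor of lipoprotein lipase, at 48.5 to 75.2, 21.1 to 30.4 and 64.8 to 73.7 FPKM. Fabp4 (-2.49 and 2.37 on the log2 scale), Lpl (-1.06), Cidec (-1.73) and Adipoq (-2.29) also fell. Fabp4, Cidec and Adipoq are adipocyte markers, whose list of 7 summed to 34.2 to 107 FPKM in control ovaries, 15.7 to 28.3 in PCOS ovaries and 18.4 to 48.2 in PCOS-MV ovaries. The part of adipose tissue at the ovary was not tested.

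The liver X receptors sense oxysterols. Nr1h2 was at 28.2 to 31.8, 29.1 to 33.5 and 29.6 to 33.3 FPKM and gave no call. Nr1h3 (LXRα) was at 4.95, 5.30, 4.76 and 5.10 FPKM in control ovaries, 4.74, 5.91, 5.60 and 5.83 FPKM in PCOS ovaries and 5.16, 11.2, 10.1 and 11.3 FPKM in PCOS-MV ovaries. PCOS-MV replicate 1 lay with the other groups, and the other 3 PCOS-MV libraries were above every control and PCOS library. The differences from PCOS, 0.63 ± 0.21 (adjusted p = 0.0620), and from control, 0.74 ± 0.21 (adjusted p = 0.497), did not pass, and without PCOS-MV replicate 1 they had adjusted p of 0.00104 and 0.0222. Of the 8 tested LXR target genes, the cholesterol export genes Abca1 (1.27 and -0.77) and Abcg1 (0.94 and -0.73) rose in PCOS ovaries and were lower in PCOS-MV ovaries. Scd, a desaturase gene, fell in PCOS ovaries (-1.36), Lpcat3 was higher in PCOS-MV ovaries than in PCOS (0.47), and the other 4 were not called. Nr1h4 (FXR), the bile acid receptor, was below the filter at 0.336 to 0.555, 0.875 to 1.20 and 0.142 to 0.488 FPKM. Tested without the filter, it was 0.51 higher in PCOS than in control (adjusted p = 0.00269) and -0.66 lower in PCOS-MV than in PCOS (adjusted p = 0.00356). The xenobiotic receptors Nr1i2 and Nr1i3 reached at most 0.318 and 0.341 FPKM in a library.

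Of the tested retinoid, thyroid hormone and vitamin D receptors, Vdr had the largest log2 difference in both comparisons with PCOS. It was at 1.42, 1.52, 1.60 and 1.77 FPKM in control ovaries, 0.822, 0.668, 0.614 and 0.802 FPKM in PCOS ovaries and 1.30, 2.77, 1.54 and 3.41 FPKM in PCOS-MV ovaries. The PCOS libraries were all below the others. Vdr fell by 0.58 ± 0.11 (log2) in PCOS ovaries (adjusted p = 0.00547) and was 0.86 ± 0.20 higher in PCOS-MV ovaries than in PCOS (adjusted p = 0.0161). Rara, a retinoic acid receptor gene, was at 17.8 to 21.9 FPKM in control and 21.9 to 28.7 FPKM in PCOS, touching at the ends, and rose by 0.34 ± 0.11 (adjusted p = 0.0481), a call kept in 3 of 8 fits without a library (adjusted p 0.0332 to 0.124). Its PCOS-MV libraries were at 19.9 to 21.9 FPKM. Rarg and the retinoid X receptors Rxra and Rxrb gave no call, with log2 differences between PCOS and control of -0.07, 0.06 and 0.17. Rxrg was below the filter, at 0.196 to 0.507, 0.628 to 1.16 and 0.213 to 0.744 FPKM, and tested without the filter it was 0.57 higher in PCOS (adjusted p = 0.0105) and -0.51 lower in PCOS-MV than in PCOS (adjusted p = 0.0417). Of the 4 tested genes of the retinoic acid receptor list, the retinoic acid carrier Crabp2 fell (-2.23) and the retinaldehyde reductase gene Dhrs3 rose (0.75) in PCOS ovaries, and in PCOS-MV compared with PCOS Crabp2 (2.02) was higher and Dhrs3 (-0.68) and Tgm2 (-0.61) were lower.

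Thra (TRα), at 19.5, 23.8, 22.1 and 23.9 FPKM in control ovaries and 27.3, 29.2, 26.9 and 27.1 FPKM in PCOS ovaries, rose by 0.30 ± 0.08 (adjusted p = 0.0230). The groups did not overlap, and the call was lost without PCOS replicate 2 (adjusted p = 0.0706) or PCOS replicate 4 (0.0534), and with 1 model for 12 libraries (0.0971). In the PCOS-MV group Thra was at 24.9, 35.9, 28.4 and 38.8 FPKM, above every control library, with a difference from control of 0.48 ± 0.14 that did not pass (adjusted p = 0.497). Thra and Nr1d1 lie on opposite strands of chromosome 10 and overlap at their ends, from 86683875 to 86684933 in the authors' coordinates. The strandedness of the counts is not given in the sources used here, and without strand the reads of this stretch cannot be told apart. Thrb was at 1.92 to 3.16, 2.35 to 2.58 and 1.75 to 2.84 FPKM and gave no call. Of the 5 tested genes that respond to thyroid hormone or vitamin D, 3 fell in PCOS ovaries, and 1 was higher and 2 were lower in PCOS-MV than in PCOS ovaries.

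Nr1d1 and Nr1d2 were the tested receptors in which every PCOS-MV library lay outside the range of both other groups. Nr1d1 (REV-ERBα) was at 40.2, 34.8, 40.8 and 40.4 FPKM in control ovaries, 32.2, 23.2, 33.5 and 31.3 FPKM in PCOS ovaries and 22.0, 8.71, 12.2 and 13.3 FPKM in PCOS-MV ovaries. The 3 groups did not overlap. Nr1d1 fell by 0.38 ± 0.12 in PCOS ovaries (adjusted p = 0.0456), a call kept in 1 of 8 fits without a library, that without PCOS replicate 3, with adjusted p of 0.0462 to 0.0996 over the 8 fits, and lost with 1 model for 12 libraries (0.211). It was lower in PCOS-MV ovaries than in PCOS by -1.10 ± 0.24 (adjusted p = 0.0121) and than in control by -1.48 ± 0.23. The latter did not pass over all genes (adjusted p = 0.338; exact permutation p = 0.0286), and without PCOS-MV replicate 1 it did (adjusted p = 0.0222). Nr1d2 (REV-ERBβ) was at 27.5, 25.4, 39.3 and 31.1 FPKM in control ovaries, 35.2, 30.3, 34.2 and 33.4 FPKM in PCOS ovaries and 17.7, 11.5, 16.9 and 13.9 FPKM in PCOS-MV ovaries. Control and PCOS overlapped and the PCOS-MV libraries lay below both. The difference from PCOS was -1.12 ± 0.13 (adjusted p = 0.000674) and that from control was -0.99 ± 0.17 (adjusted p = 0.352; exact permutation p = 0.0286).

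Rora, the activator that competes with these repressors for DNA, was at 44.4, 50.9, 17.99 and 34.5 FPKM in control ovaries and at 15.5, 15.0, 16.99 and 15.8 FPKM in PCOS ovaries. Its PCOS-MV libraries were at 61.8, 37.9, 69.0 and 34.9 FPKM. The PCOS libraries were the lowest, with Control replicate 3 next above them. Rora fell by 1.08 ± 0.27 in PCOS ovaries (adjusted p = 0.0197) and was 1.57 ± 0.21 higher in PCOS-MV ovaries than in PCOS (adjusted p = 0.00135). The fall lost its call without PCOS replicate 2 (adjusted p = 0.0517), and without Control replicate 3 it was -1.38 (adjusted p = 0.000206). Rorb was at most 0.302 FPKM in every library.

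**Figure D4:**
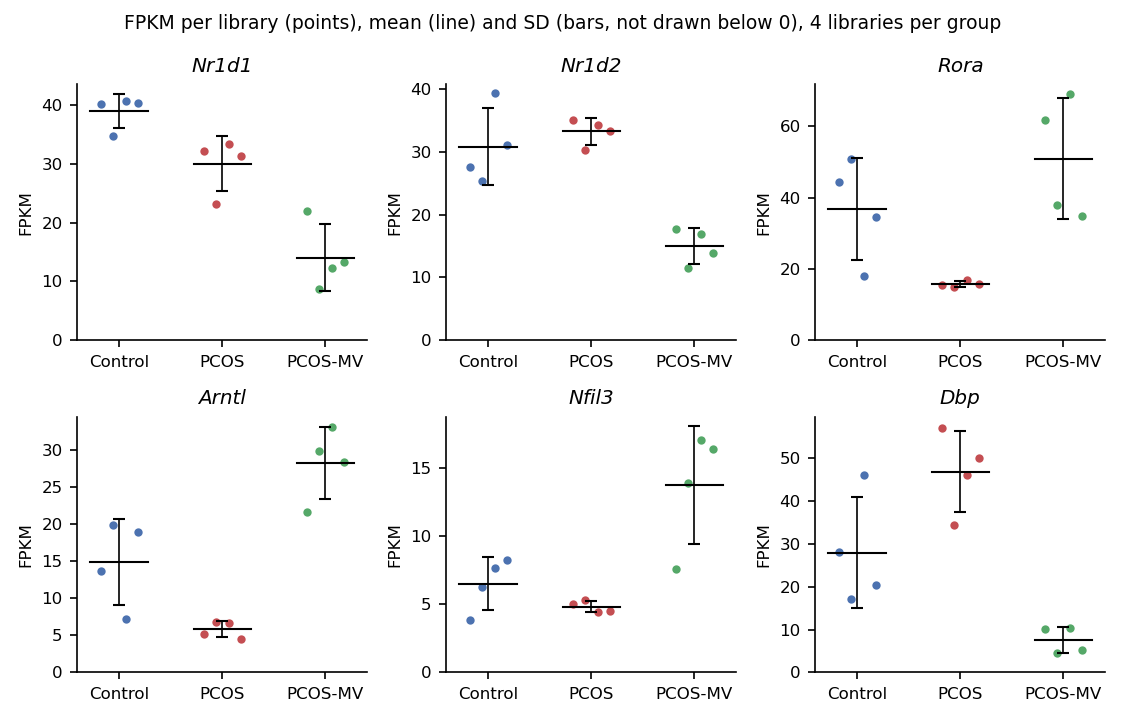
FPKM of the receptors Nr1d1, Nr1d2 and Rora and of 3 clock-linked genes in every library (points) with the group mean (line) and SD (bars), 4 libraries per group. In the PCOS-MV group Nr1d1, Nr1d2 and Dbp lie below, and Arntl lies above, every library of the other groups.

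Of the 8 tested genes that REV-ERB and ROR receptors regulate or that share their clock, 1 rose (Npas2) and 2 fell (Clock and Arntl) in PCOS ovaries. In PCOS-MV ovaries compared with PCOS, 2 rose and 3 fell, and Clock was not called. Arntl, the core activator of the clock, was at 13.7, 19.9, 7.25 and 18.9 FPKM in control ovaries, 5.24, 6.83, 6.61 and 4.55 FPKM in PCOS ovaries and 21.6, 29.8, 33.1 and 28.4 FPKM in PCOS-MV ovaries. The 3 groups did not overlap, with log2 differences of -1.15 ± 0.28 (adjusted p = 0.0161) and 2.10 ± 0.15 (adjusted p = 0.000112). Dbp, a clock output factor, was at 17.1 to 46.0, 34.4 to 57.0 and 4.56 to 10.3 FPKM and was lower in PCOS-MV ovaries than in PCOS by -2.54 ± 0.26 (adjusted p = 0.000450). Tef, its relative, was lower as well (-0.95), while Nfil3, a repressor of the same sites, was higher (1.28). Npas2, a partner of BMAL1, rose in PCOS ovaries (1.08) and was lower in PCOS-MV ovaries (-0.63). Per2 and Cry1, repressors of the clock, gave no call. The hour at which each ovary was taken is not given in the sources used here.

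The NR4A receptors are immediate early genes that the luteinizing hormone surge induces in the follicle. Nr4a1 was at 17.03, 14.6, 79.6 and 20.5 FPKM in control ovaries, 16.6, 10.9, 19.3 and 15.4 FPKM in PCOS ovaries and 15.3, 8.14, 37.2 and 10.1 FPKM in PCOS-MV ovaries. Control replicate 3 stood far above the rest, followed by PCOS-MV replicate 3. Nr4a2 was at 1.80, 1.71, 5.32 and 2.34 FPKM in control ovaries, 1.39, 1.22, 1.53 and 1.55 FPKM in PCOS ovaries and 1.90, 1.403, 2.62 and 1.52 FPKM in PCOS-MV ovaries. Nr4a3 was at 0.733, 0.872, 2.33 and 0.999 FPKM in control, 2.97, 0.970, 1.10 and 0.831 FPKM in PCOS and 0.661 to 0.894 FPKM in PCOS-MV. None of the 3 passed a test, with log2 differences between PCOS and control of -0.70 ± 0.48, -0.56 ± 0.25 and 0.12 ± 0.29. The control and PCOS ranges of Nr4a2 did not overlap (adjusted p = 0.141).

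Pgr, the progesterone receptor gene, was at 0.213, 0.520, 13.0 and 0.567 FPKM in control ovaries, 0.227, 0.110, 0.0903 and 0.165 FPKM in PCOS ovaries and 0.136, 0.0922, 0.270 and 0.141 FPKM in PCOS-MV ovaries. Control replicate 3 was the only library above 1 FPKM. The log2 difference of PCOS from control was -1.14 ± 0.70 (adjusted p = 0.264), and without Control replicate 3 it was -0.31 (adjusted p = 0.139). In the same library, the ciliated oviduct markers summed to 34.9 FPKM against at most 6.20 in any other, with Pax8 at 10.7 FPKM and Tekt1 at 7.36 FPKM, and the smooth muscle markers summed to 988 FPKM against at most 725. Within the groups, the lowest correlation between libraries, 0.921, was that of a control pair. The part of neighbouring oviduct tissue in this library was not tested. Of the 7 tested progesterone receptor target genes, 1 was called between PCOS and control, Adamts1, a protease of ovulation, which fell (-1.33). In PCOS-MV ovaries compared with PCOS 3 were higher, Adamts1 (1.12), Ereg and Hif1a (0.29), and 1 was lower, Zbtb16 (-1.88).

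**Figure D5:**
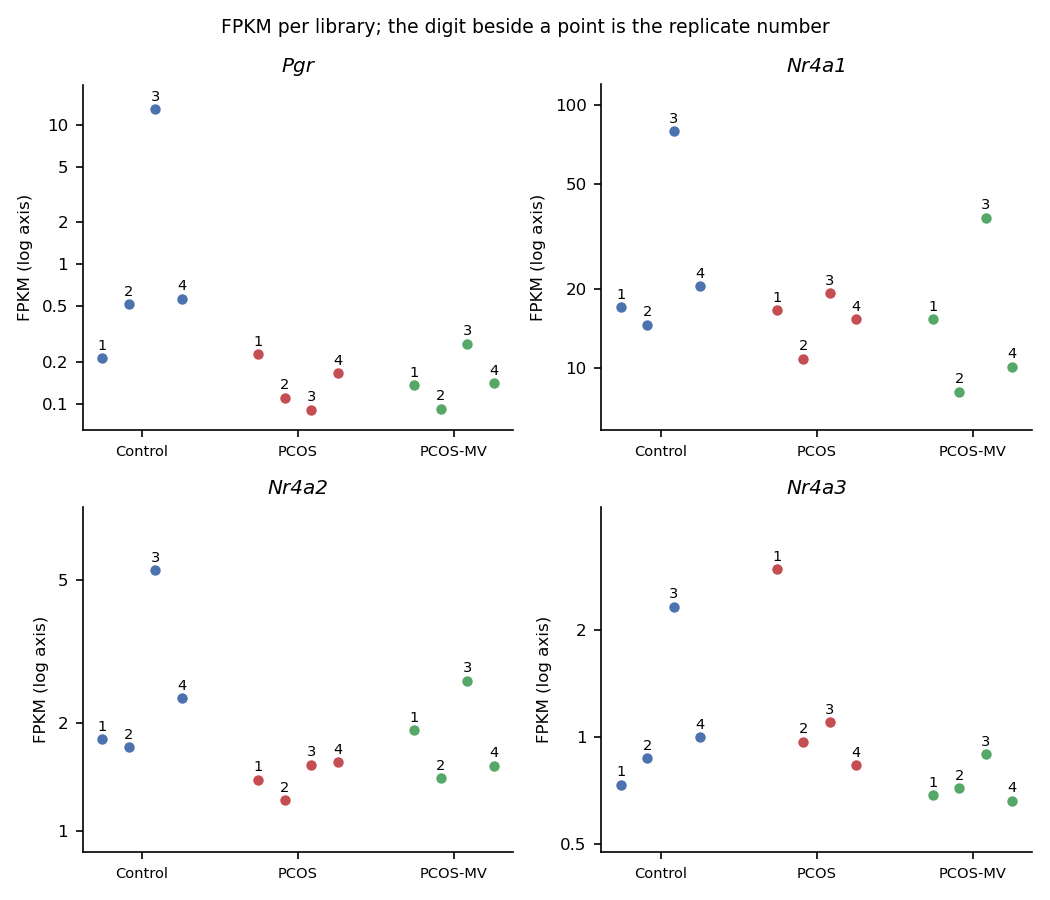
FPKM of Pgr and the NR4A receptors in each library on log axes, with the replicate number beside each point. Control replicate 3 is the highest library of all for Pgr, Nr4a1 and Nr4a2, and PCOS replicate 1 is the highest for Nr4a3.

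Among the COUP-TF, testicular and HNF4 receptors, Nr2f2, a receptor of theca and stromal cells, was at 60.3, 73.1, 65.9 and 74.7 FPKM in control ovaries, 106, 115, 116 and 101 FPKM in PCOS ovaries and 66.1, 79.8, 64.2 and 86.0 FPKM in PCOS-MV ovaries. Its PCOS libraries were above all others. It rose by 0.67 ± 0.09 (adjusted p = 0.000881) and was lower by -0.57 ± 0.11 in PCOS-MV ovaries (adjusted p = 0.00679). Nr2f1, its paralog, was at 1.94 to 5.78, 1.49 to 1.82 and 1.70 to 4.26 FPKM, with a difference of -0.58 ± 0.24 between PCOS and control that did not pass (adjusted p = 0.109). The log2 ratio of Nr2f1 to Nr2f2 was -4.11 ± 0.55 (SD, n = 4) in control, -5.36 ± 0.15 in PCOS and -4.42 ± 0.26 in PCOS-MV, each change with an exact permutation p of 0.0286 and an adjusted p of 0.0762. Nr2f6 was at 29.7, 27.8, 31.6 and 30.2 FPKM in control, 26.6, 20.3, 19.1 and 21.2 FPKM in PCOS and 31.8, 25.3, 28.3 and 26.8 FPKM in PCOS-MV. It fell by 0.45 ± 0.10 in PCOS ovaries (adjusted p = 0.0130), and the PCOS-MV difference from PCOS of 0.36 ± 0.11 missed the threshold (adjusted p = 0.0501), while without PCOS replicate 1 it passed (adjusted p = 0.0146). The testicular receptors Nr2c1 and Nr2c2 gave no call. Nr6a1, Nr2e3 and the HNF4 genes were below the filter, and limma without the filter gave no call for them either. The nearest to the threshold was Hnf4g between PCOS-MV and PCOS (adjusted p = 0.0547).

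Esrra (ERRα), an orphan that activates mitochondrial genes with PGC-1 coactivators (chromosome 1, 222168730 to 222178725, minus strand), varied little between control libraries. It was at 18.4, 18.8, 18.7 and 18.2 FPKM in control ovaries, 10.9, 9.96, 10.5 and 10.9 FPKM in PCOS ovaries and 21.4, 15.8, 23.1 and 16.9 FPKM in PCOS-MV ovaries. All PCOS libraries lay below all others. Esrra fell by 0.76 ± 0.06 (log2) in PCOS ovaries (adjusted p = 5.61e-05) and was 0.80 ± 0.12 higher in PCOS-MV ovaries than in PCOS (adjusted p = 0.00223). Esrrb and Esrrg were below the filter, and both had their highest value in Control replicate 3, at 1.49 and 1.20 FPKM. Of the 9 tested genes of the ERR target list, which includes Esrra itself, 5 fell in PCOS ovaries, and 5 were higher in PCOS-MV ovaries than in PCOS. The cytochrome oxidase subunit Cox5a (-0.69 and 0.72), the isocitrate dehydrogenase subunit Idh3a (-0.52 and 0.58) and the pyruvate dehydrogenase subunit Pdha1 (-0.39 and 0.30) were called in both comparisons. The complex I subunit Ndufs1 (-0.34) was called in the first and cytochrome c (Cycs, 0.42) in the second. The calls of Ndufs1 in the first and of Pdha1 and Cycs in the second were lost in some fits without a library. That of Pdha1 in the second was also lost with the replicate block. The median difference of the list was -0.39 in the first comparison, where that of all tested genes was -0.03, and 0.30 in the second, where it was 0.03.

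Receptors act through coregulators. Of the 15 tested coactivator genes, Ncoa1 (SRC-1), at 0.29 and -0.27 on the log2 scale, and Ppargc1b (PGC-1β), at -0.45 and 0.46, were called in both comparisons with PCOS, and the other 13 were not called in either. The calls of Ncoa1 were made in 2 and 3 of 8 fits without a library (adjusted p up to 0.103 and 0.0837) and that of Ppargc1b in the second comparison in 7 of 8. Ppargc1a, which encodes the PGC-1α partner of ERRα, was below the filter with a mean of 0.556 FPKM. Of the 11 tested corepressor entries, 4 were called between PCOS and control, Gps2 (0.42) and Ncor1 (0.24) higher and Tbl1x (-0.48) and an entry of Rcor1 (-0.45) lower. In the PCOS-MV group compared with PCOS, 6 were called, Tbl1x (0.52) and both entries of Rcor1 (0.51 and 0.46) higher and Ncor1 (-0.22), Nrip1 (-0.44) and Zbtb16 (-1.88) lower. The calls of Ncor1 were made in 1 and 3 of 8 fits without a library (adjusted p up to 0.115 and 0.0746), and that of the lower Rcor1 entry in 4 of 8. Beside the 27.4% and 25.7% of all tested genes, the share called between PCOS and control and between PCOS-MV and PCOS was 13.3% and 13.3% of the coactivators, 36.4% and 54.5% of the corepressors, 50% and 25% of the estrogen receptor targets, 41.7% and 58.3% of the glucocorticoid receptor targets and 14.3% and 57.1% of the progesterone receptor targets. It was 58.3% and 50% of the PPAR targets, 37.5% and 37.5% of the liver X receptor targets, 37.5% and 62.5% of the clock list, 60% and 60% of the thyroid hormone and vitamin D list and 55.6% and 55.6% of the ERR list. These lists hold 5 to 15 tested genes each, and their differences from all genes were not tested. Over the 8 receptor pairs, the 24 exact permutation tests of a within-library ratio gave an unadjusted p of 0.0286 in 9 cases and a smallest adjusted p of 0.0762.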

How the data were processed

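Total ovarian RNA of 12 rats had been made into libraries with a NEBNext Ultra kit and sequenced on an Illumina platform. The authors aligned the filtered reads with HISAT2, counted them per gene with featureCounts and deposited FPKM values. The submitters' processing notes instead list STAR 2.5.1b and HTSeq 0.6.0, and the genome build is not given in the sources used here. The deposited FPKM table repeats a gene on 26928 transcript lines, of which 1 per gene was kept (19730 genes). The authors' group means and DESeq2 comparison columns were not used. Groups came from the sample titles. Column names beginning Ctrl, PCOS and MG were matched to the control, PCOS and PCOS-MV samples.

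Read totals are not given. The steps between low FPKM values of 14762 single-transcript genes placed the libraries at fragment totals between 30200000 and 36900000, an estimate that rests on 23.1% to 26.5% of low values lying within 0.02 of a whole step, against 4% by even spread. FPKM summed to 339830 to 373758 per library.

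Values were compared as log2(FPKM + 1), 4 libraries against 4, by the moderated test of limma 3.58.1 (trended eBayes) under R 4.3.3. Genes averaging 1 FPKM or more over the 12 libraries (13430) entered, and p-values were adjusted over all of them. Each rat gave 1 library. The limma step was tested on simulated data. Ratios of 8 receptor pairs, those of 11 listed with both members tested, were compared by exact two-sided permutation tests. Coordinates are those of the authors' file; promoter windows came from RefSeq (GRCr8). Every listed receptor was to be named and, of each other list, at most 3 called genes with the largest rise and 3 with the largest fall in a comparison. Further list genes in the text were chosen after their values were seen, and some listed genes are not reported here. The members and the coregulator, target and cell type lists were chosen with earlier results of these data known. Alternatives covered the pseudocount, the filter, 1 model for 12 libraries, a 2-fold threshold, the replicate block, rescaled libraries and each library left out. Tables were made with Python 3.11.15 and pandas 2.3.3.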

Additional observations from a re-analysis of the deposited data

Results flagged for a closer look

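For each tested receptor in each group of 4, the gap between the most extreme library and its nearest neighbour was set against the whole range by Dixon's criterion for 4 samples. An outlying library was found in 6 of 96 groups, where chance gives about 1 in 20, or 4.8.

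Control replicate 3 was outlying for 3 receptors. Pgr was at 13.0 FPKM there and at 0.213 to 0.567 FPKM in the other control libraries. Nr4a1 was at 79.6 FPKM against 14.6 to 20.5 FPKM, and Nr4a3 at 2.33 FPKM against 0.733 to 0.999 FPKM. Control replicate 2 was outlying on the low side for Nr1d1, at 34.8 FPKM against 40.2 to 40.8 FPKM, and for Nr2c1, at 6.15 FPKM against 6.83 to 6.93 FPKM. PCOS replicate 1 was outlying for Nr4a3, at 2.97 FPKM against 0.831 to 1.10 FPKM.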

How the results depend on the processing

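The direction of every called receptor was the same under each alternative. Between PCOS and control, 7 of 12 calls (Esrra, Nr0b1, Nr2f2, Nr2f6, Nr5a1, Ppara and Vdr) were made in all 8 fits without a library, and between PCOS-MV and PCOS all 11. Without a library, receptors called higher numbered 4 to 7 and lower 3 to 5 between PCOS and control, 3 to 4 and 8 to 9 between PCOS-MV and PCOS, and 0 to 1 in each direction between PCOS-MV and control. The extremes of 4 and 3 came without PCOS replicate 4 and PCOS replicate 2. All genes called numbered 1218 to 1639 higher and 1539 to 2276 lower, then 1272 to 1934 and 1167 to 1420, then 1 to 2 and 0 to 2, in the same order of comparisons. With a 2-fold threshold, receptors called were 3 higher and 1 lower, then 1 and 5, and all genes 436 and 471, then 360 and 391. With 1 model for 12 libraries, 5 receptors were called higher in PCOS-MV than in PCOS, the calls of Esr1 there (adjusted p = 0.0766) and of Thra (0.0971) and Nr1d1 (0.211) between PCOS and control ended, and between PCOS-MV and control 0 genes were higher and 1 lower. With a filter of 5 FPKM 0 genes were called there. No filter ended the PCOS calls of Esr2 (adjusted p = 0.0579), Rara (0.0665) and Nr1d1 (0.0665).

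Rescaling the libraries by their median ratio ended the PCOS call of Nr1d1 (adjusted p = 0.0674) and added Rxrb (0.0299) and Nr2c2 (0.0461), and Nr2f6 in PCOS-MV compared with PCOS (0.0448). Deviations of same-numbered libraries correlated at -0.0534 to 0.216, so the numbers were not taken as pairs. The replicate block ended the call of Rara (adjusted p = 0.101) and added Nr5a2 (0.0337) between PCOS and control, added Nr5a2 (0.0437), Nr1h3 (0.0337) and Nr2f6 (0.0278) to make 6 receptors higher between PCOS-MV and PCOS, and left 0 genes called higher between PCOS-MV and control. List counts moved by over 1.5 times in a few cases apart from the 2-fold threshold. Between PCOS and control, the coactivators went from 2 to 1 without a filter, with the 5 FPKM filter and with the block, the corepressors from 4 to 2 and the thyroid and vitamin D list from 3 to 1 with the block, the progesterone receptor list from 1 to 2 without a filter and with a pseudocount of 0.1, and the liver X receptor list from 3 to 5 without a filter. Between PCOS-MV and PCOS, the coactivators went from 2 to 1 with the 5 FPKM filter and to 0 with the block, and the estrogen receptor list from 2 to 1 without a filter. Of 8 fits without a library, the calls of Scarb1 (6), Ndufs1 (4) and an Rcor1 entry (4) between PCOS and control and of Fabp4 (7), Lhcgr (4), Pdha1 (3) and Cycs (2) between PCOS-MV and PCOS were made in the number given. The block ended those of Gps2 (adjusted p = 0.0511) in the first and of Ppargc1b (0.0552) and Pdha1 (0.0689) in the second, and those of Ncoa1 (0.101 and 0.0614) and Ncor1 (0.0983 and 0.0619) in both. The causes of these moves were not tested. Receptors below 1 FPKM rest on few fragments, which limits what could be called.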
